A study of Homo sapiens with 8 samples.

Results

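The genes of 2 large nuclear machines, the Mediator complex and the nuclear pore complex, were followed through the m6A peaks of chromosome-associated RNA. Members were chosen by symbol alone, as protein-coding genes named MED plus a number with an optional letter, NUP plus a number with optional letters, or TPR. This gave 54 of 20056 protein-coding genes in RefSeq GRCh38, of which 30 were Mediator genes and 24 nucleoporin genes. Every peak that overlapped the bounds of a member by at least 1 bp was taken, which gave 90 of 29084 wild-type peaks and 70 of 23937 knockout peaks. The samples came from HEK293T, an established line of human embryonic kidney cells, either parental (wild type) or METTL3-/- (METTL3 knockout). METTL3 is the enzyme that writes most N6-methyladenosine (m6A) on messenger RNA. The 8 samples formed 4 groups of 2 replicates, an input and an m6A immunoprecipitate (IP) for each genotype. All were RNA of the chromosome fraction, cleared of DNA and ribosomal RNA. The labels do not say whether the knockout line was 1 clone.

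Mediator relays signals from transcription factors bound at enhancers to RNA polymerase II. Its head and middle modules contact the polymerase, its tail receives most activators, MED14 runs through all of them as a backbone, and a dissociable kinase module of CDK8 or CDK19, cyclin C, MED12 and MED13 regulates the rest. The nuclear pore complex carries proteins and RNA across the nuclear envelope. Its Y-shaped subcomplexes form the outer rings, an inner ring surrounds the channel, nucleoporins with phenylalanine-glycine repeats fill the channel, and filaments and a basket project into the cytoplasm and the nucleus. Several basket and channel nucleoporins also touch chromatin. Marks on nascent RNA of such genes can be read in the chromosome fraction because transcripts are still attached to their templates.

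Each genotype was represented by a single deposited peak list, so that no difference below has a replicate check and every interval covers counting error only. METTL3 itself held 2 wild-type peaks and 0 knockout peaks, and 32% of protein-coding genes with 2 wild-type peaks also had no knockout peak. The fold of a peak, a value of the authors' peak caller, sets IP signal against local input as a ratio, and its scale differs between the lists, as does the signal that 1 IP read adds. IP reads were recovered from the fold and p-value of each peak. Member peaks rested on medians of 38 IP reads in wild type (range 10 to 164) and 42.5 in the knockout (11 to 265), against 26 and 32 for peaks in all protein-coding genes. A peak is called shared where it had 1 bp or more in common with a same-strand peak from the other genotype.

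Mediator and nucleoporin genes held almost the same number of wild-type peaks, whereas Mediator genes held fewer knockout peaks than nucleoporin genes. Mediator genes held 46 wild-type and 27 knockout peaks, or 58.7 knockout peaks per 100 in wild type. Nucleoporin genes held 44 and 43, or 97.7 per 100. All protein-coding genes together gave 80.4 per 100, which lay between the complexes. The knockout share of the peaks of both lists was 37.0% in Mediator genes (95% Clopper-Pearson interval 26.0 to 49.1) and 49.4% in nucleoporin genes (38.5 to 60.4). These intervals overlapped, and both held the 44.6% of all protein-coding genes. The difference between the complexes was not tested, because genes of a complex are not replicates. The wild-type list was then cut to the length of the knockout list by keeping its strongest peaks. Mediator genes held 35 and 27 peaks, or 77.1 per 100, and nucleoporin genes 39 and 43, or 110.3 per 100. Over protein-coding genes this setting gave 97.1 per 100. Restricting both lists to their upper 50% by fold turned the order of the complexes round. Mediator genes then held 17 and 14 peaks, or 82.4 per 100, and nucleoporin genes 22 and 17, or 77.3 per 100, beside 83.1 over protein-coding genes.

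Gene by gene the balance looked as follows. Of 20 Mediator genes with a peak, 12 had more wild-type peaks, 6 had equal numbers and 2 had more knockout peaks. Of 22 nucleoporin genes with a peak, the same classes held 8, 6 and 8. The last class includes NUP210L and NUP88, whose only peaks lay on the strand opposite to the gene. Among all 9592 protein-coding genes with a peak, 51.0% had more wild-type and 31.8% more knockout peaks. No member stood out singly. Across 12199 protein-coding and long noncoding genes with a peak, Fisher's exact test of each gene's peak numbers with Benjamini-Hochberg adjustment called 2 genes with more wild-type peaks (0.0164%) and 2 with more knockout peaks (0.0164%), and 0 of the 42 members with a peak. The smallest member p was 0.0920 for NUP210L before adjustment and 1 after it in the same exact test, so that 0 members were also below an unadjusted 0.05.

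**Figure D1:**
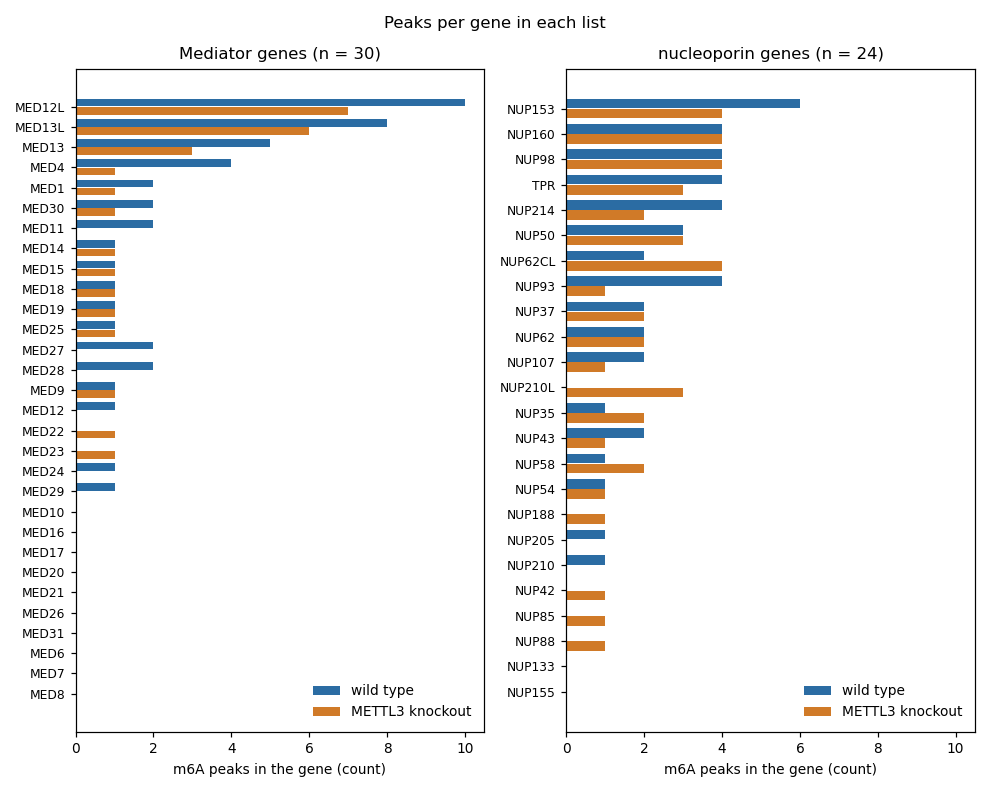
Number of m6A peaks in each Mediator gene (left, n = 30) and nucleoporin gene (right, n = 24), with wild-type peaks in blue and METTL3-knockout peaks in orange on a horizontal axis that starts at 0. MED12L leads with 10 and 7 peaks, 10 Mediator genes and 2 nucleoporin genes have none, and the knockout bar is the longer in 2 Mediator and 8 nucleoporin genes. Peaks on either strand are counted.

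Most nucleoporin genes carried a peak, whereas 10 Mediator genes carried none. A peak in either list was found in 22 of 24 nucleoporin genes (91.7%) and in 20 of 30 Mediator genes (66.7%), against 47.8% of all protein-coding genes. Peaks on either strand were counted, and NUP210L and NUP88 had only peaks opposite to the gene. The 10 Mediator genes without a peak were MED6, MED7, MED8, MED10, MED16, MED17, MED20, MED21, MED26 and MED31. The nucleoporin genes without a peak were NUP133 and NUP155. Mediator genes had a median length of 19.5 kb and nucleoporin genes of 61.5 kb. Mediator genes with a peak had a median of 23.0 kb and those without of 16.1 kb. In nucleoporin genes the order was the other way, with 59.1 kb in the 22 genes with a peak and 75.5 kb in the 2 without. Up to 10 kb a peak was present in 5 of 9 Mediator genes, beside 16.3% of all protein-coding genes of that length, and no nucleoporin gene was that short. Within bounds of 10 to 50 kb a peak was present in 8 of 13 Mediator genes and 10 of 10 nucleoporin genes, beside 48.2% of all protein-coding genes of that length. At 50 to 100 kb it was present in 3 of 4 and 7 of 9, beside 70.2%. All members above 100 kb had a peak, 4 of 4 Mediator and 5 of 5 nucleoporin genes, beside 81.1%.

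Peak density per length was alike in wild type. Mediator genes held 2.77 wild-type peaks per 100 kb and nucleoporin genes 2.72, both above the 1.75 of all protein-coding genes. In the knockout the densities were 1.63 and 2.66 per 100 kb, beside 1.41. MED11 was the densest member, with 2 wild-type peaks in 2.18 kb, and MED27 held the same number in 220 kb. The part that transcript levels play in these densities was not tested.

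**Figure D2:**
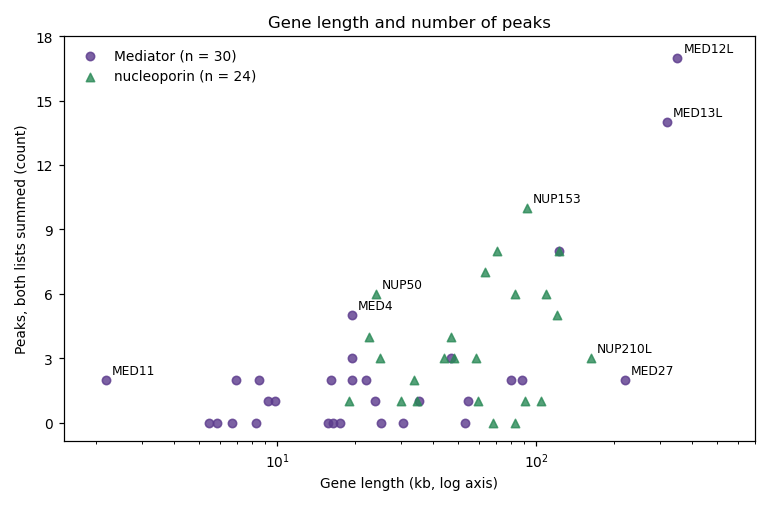
Gene length in kb on a log axis against the number of peaks of both lists summed, for 30 Mediator genes (circles) and 24 nucleoporin genes (triangles), 1 point per gene. MED12L and MED13L, the longest members at 351 and 319 kb, have the most peaks (17 and 14), and MED11 has 2 peaks in 2.18 kb.

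Some genes had peaks in 1 list only. Among 18 Mediator genes that wild type marked, 6 lacked a knockout peak (33.3%, interval 13.3 to 59.0), namely MED11, MED12, MED24, MED27, MED28 and MED29. Of 17 such nucleoporin genes, 2 had none (11.8%, 1.46 to 36.4), namely NUP205 and NUP210. The background over all protein-coding genes was 32.8%, inside both intervals. This share depends on how many peaks a gene has. It was 52.4% of protein-coding genes with 1 wild-type peak, 32% with 2 and 9.16% with 3 or more. Among Mediator genes it was 3 of 9, 3 of 5 and 0 of 4 in these classes, and among nucleoporin genes 2 of 5, 0 of 5 and 0 of 7. In the other direction, MED22 and MED23 had a knockout peak and no wild-type peak (2 of 14 Mediator genes with a knockout peak), as did NUP42, NUP85, NUP88, NUP188 and NUP210L (5 of 20 nucleoporin genes), beside 23.6% of all protein-coding genes.

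A peak in the same gene was often not a peak at the same place. In Mediator genes 38 of 46 wild-type peaks had no knockout partner (82.6%, 68.6 to 92.2) and in nucleoporin genes 33 of 44 (75%, 59.7 to 86.8), beside 78.7% over protein-coding genes. Of the knockout peaks, 19 of 27 (70.4%, 49.8 to 86.2) and 32 of 43 (74.4%, 58.8 to 86.5) had no wild-type partner, beside 73.5%. The protein-coding share lay inside the interval of each complex in each list. Shared peaks numbered 8 in Mediator and 11 in nucleoporin genes. They lay in 7 of the 12 Mediator genes and 8 of the 15 nucleoporin genes that had peaks in both lists (58.3% and 53.3%), beside 55.8% of such protein-coding genes. The nearest same-strand peak of the other list lay at median gaps of 23.3 kb and 18.4 kb for Mediator peaks of wild type and knockout and 10.1 kb and 9.92 kb for nucleoporin peaks that had no partner. Near misses within 1000 bp were 0 and 1 in Mediator genes and 2 and 1 in nucleoporin genes. Gaps and near misses were not computed over all protein-coding genes, so the complexes have no reference for these values.

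Strand was examined because peaks were assigned without regard to it. RefSeq start-site records gave the strand of 45 members, and those not covered were MED6, MED8, MED13, MED14, MED21, MED22, MED28, MED30 and NUP43. All 36 wild-type and 21 knockout peaks in Mediator genes of known strand lay on the strand of the gene. So did all 42 wild-type peaks in nucleoporin genes, while 4 of 42 knockout peaks lay opposite (9.52%, 2.66 to 22.6). Over protein-coding genes 8.01% of wild-type and 8.63% of knockout peaks lay opposite to the gene. The opposite peaks rested on 11 to 15 IP reads. NUP210L, a paralogue of the membrane nucleoporin NUP210, is a minus-strand gene and held 3 plus-strand knockout peaks with folds of 6.65, 5.41 and 6.23 on 14, 11 and 13 IP reads. NUP88, a cytoplasmic-side nucleoporin on the minus strand, held a plus-strand knockout peak at chr17:5394155-5394622 with a fold of 4.10 on 15 reads. These 4 were the only peaks of the 2 genes, so neither gene had a peak on its own strand in either list. By the strand of the peaks, Mediator genes held 22 plus and 24 minus peaks in wild type. In the knockout they held 12 plus and 15 minus peaks. Nucleoporin genes held 16 plus and 28 minus peaks in wild type. Their knockout peaks were 18 plus and 25 minus. In Mediator genes knockout peaks were thus fewer on both strands, at 54.5 and 62.5 per 100 wild-type peaks on plus and minus, beside 84.1 and 75.8 over protein-coding genes. In nucleoporin genes the plus strand gave 112.5 per 100 and the minus strand 89.3. Counting only peaks on the strand of genes of known strand gave 58.3 per 100 in Mediator and 90.5 in nucleoporin genes. The ratio over protein-coding genes was not computed for that setting.

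The kinase module held most peaks of the Mediator complex. Its 4 genes carried 24 of the 46 wild-type and 16 of the 27 knockout peaks, and the other Mediator genes 22 and 11. The 4 genes also made up 817 of the 1659 kb of Mediator gene length. Their densities of 2.94 wild-type and 1.96 knockout peaks per 100 kb stood beside 2.77 and 1.63 over all Mediator genes. MED12L, a paralogue of the CDK8-activating subunit MED12, held 10 wild-type and 7 knockout peaks over 351 kb, with 2 shared. Its wild-type folds ran from 3.84 to 22.8 and its knockout folds from 5.42 to 16.4. The strongest Mediator peak of wild type was in this gene, at chr3:151269855-151270097, with a fold of 22.8 on 51 IP reads. The knockout peak at that place had a fold of 5.42 on 77 reads. The other shared MED12L peak ran the opposite way, with 3.84 on 30 reads in wild type and 16.4 on 73 in the knockout. The strongest MED12L peaks without a partner had 10.1 on 45 reads in wild type (chr3:151387867-151388080) and 9.73 on 30 reads in the knockout (chr3:151303995-151304204). Stretches of MED12L also lie in the bounds of the receptor genes P2RY14 and P2RY12, which are read from the other strand.

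MED13L and MED13, paralogous subunits that tether the kinase module to the core, also had peaks in both lists. MED13L held 8 peaks in wild type and 6 in the knockout, 1 of them shared at chr12:116035941-116036161 (folds 9.65 and 4.96). The rest did not meet. A group of 4 knockout peaks lay between 116190028 and 116216291 on chromosome 12, where wild type had none, while 3 wild-type peaks lay nearer the start of the gene, from 116224270 to 116269126. The strongest of the 4 had a fold of 9.34 on 66 reads. MED13 held 5 and 3 peaks, all on the minus strand, with 1 shared at chr17:61996486-61996840. That shared peak had a fold of 4.31 on 164 IP reads in wild type and 9.52 on 150 in the knockout, and was the best supported Mediator peak in either list. The strongest MED13 peak, at chr17:62020675-62020888 in wild type, had 11.1 on 38 reads and no partner. MED12 itself held a single wild-type peak, at chrX:71123192-71123515, with a fold of 13.1 on 45 reads, and no knockout peak.

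Of the 8 middle-module genes 3 had a peak, and they gave 2 shared peaks. MED4, a middle subunit, held 4 wild-type peaks within its 19.4 kb, with folds of 5.20, 7.23, 9.16 and 4.83, and 1 knockout peak with a fold of 7.92. The knockout peak fell between wild-type peaks and 1054 bp from the nearest of them, so that none was shared. The first 2 of these wild-type peaks also lie in the bounds of MED4-AS1, which is read from the other strand. MED1, the subunit that binds nuclear receptors, held wild-type peaks with folds of 5.70 and 6.4 and a knockout peak of 2.88, and its shared pair had summits 515 bp apart. MED9, another middle subunit, had 1 peak in each list at the same place, with folds of 4.35 and 6.07 on 70 and 79 reads.

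Head genes had short bounds and few peaks. MED11, which pairs with MED22 in the head, had wild-type peaks at chr17:4733044-4733263 with a fold of 14.8 on 27 reads and at chr17:4733431-4733630 with 6.68 on 12 reads. The first was the strongest Mediator peak without a partner, above 97.3% of the wild-type list counting ties, and both lay toward the 3′ end of the gene. The second also lies in the bounds of CXCL16. MED22 had 1 knockout peak with a fold of 7.36 and no wild-type peak. MED18, a head subunit, had 1 peak in each list at different places, with folds of 6.44 in wild type and 8.12 in the knockout. MED19, which structures place in the head or the middle, also had 1 in each list at different places, with 8.74 and 6.35. Subunits placed in the head or the tail by different structures held 7 wild-type and 1 knockout peaks. These were 2 wild-type peaks each in MED27 (2.84 and 8.24), MED28 (4.78 and 5.4) and MED30, and 1 in MED29 (6.61). MED30, a subunit found in animals, was the only one of these with a shared peak, with folds of 21.4 on 69 reads in wild type and 16.3 on 59 reads in the knockout. It was the only Mediator pair with both folds above 10, and its other wild-type peak had 9.94.

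Tail genes and the backbone each held at most 1 peak per list. MED15, a target of activators that include the sterol regulators, had its peak at the same place in both lists, with folds of 2.92 and 4.16. MED25, bound by the viral activator VP16, had a wild-type peak of 6.23 on 16 reads near its 5′ end and a knockout peak of 13.2 on 44 reads at chr19:49838690-49839024 near its 3′ end. That was the strongest Mediator peak of the knockout without a partner. It also lies in the bounds of the noncoding gene PTOV1-AS1. MED24 had only a wild-type peak (3.20 on 71 reads), MED23 only a knockout peak (4.07 on 128 reads), and MED14 had 1 in each list at different places (7.65 and 5.97).

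Among nucleoporins the nuclear basket was the densest module. Its 3 genes, NUP153, NUP50 and TPR, held 13 peaks in wild type, 10 in the knockout and 4 shared places, at 7.24 and 5.57 peaks per 100 kb. NUP153, a basket protein that also binds chromatin, held 6 and 4 peaks, with 1 shared whose summits were 2 bp apart (folds 3.58 and 4.40). NUP50, which helps to unload import receptors, held 3 and 3 peaks with 2 shared. The strongest nucleoporin peak of wild type was in this gene, at chr22:45185245-45185608, with a fold of 18.8 on 48 reads. Its knockout partner had 6.22 on 42 reads, and the other NUP50 pair had 9.15 on 49 and 3.44 on 41. In NUP50 both shared peaks thus had the higher fold in wild type. Its strongest knockout peak, at chr22:45178201-45178678 with 10.8 on 52 reads, had no partner. That peak and the pair with the fold of 18.8 also lie in the bounds of LOC105373064, whose strand was not known here. TPR, the scaffold of the basket, held 4 and 3 peaks with 1 shared at chr1:186326200-186326411, on 164 and 265 reads. That was the best supported nucleoporin peak in either list, and its folds were nearly equal at 2.96 and 2.93. Another wild-type TPR peak, with 4.84 on 49 reads, also lies in the bounds of PRG4 on the other strand.

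Channel nucleoporins had more knockout than wild-type peaks, 13 against 10, with 4 shared. Over protein-coding genes there were 80.4 knockout peaks per 100 in wild type. The excess lay in NUP62CL (2 wild-type and 4 knockout peaks) and NUP58 (1 and 2), and NUP98, NUP62 and NUP54 held equal numbers. NUP62, the central channel protein, had 2 peaks in each list, and all were shared. It was also the only member with a peak within 500 bp of its 5′ end. On chromosome 19, minus strand, the peak at the start covered chr19:49929329-49929551 in wild type with a fold of 5.53 on 124 IP reads, and chr19:49929329-49929546 in the knockout with 3.90 on 158 reads. The summits lay 116 and 135 bp inside the bounds. The other NUP62 peak lay near the 3′ end, with folds of 7.0 and 8.02. The RefSeq start-site window of NUP62 (GRCh38.p14, chr19:49929455-49929754, minus strand) is printed because peaks of both lists reach into it, with capitals for the 92 bases that both peaks cover, at its downstream end:

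NUP62: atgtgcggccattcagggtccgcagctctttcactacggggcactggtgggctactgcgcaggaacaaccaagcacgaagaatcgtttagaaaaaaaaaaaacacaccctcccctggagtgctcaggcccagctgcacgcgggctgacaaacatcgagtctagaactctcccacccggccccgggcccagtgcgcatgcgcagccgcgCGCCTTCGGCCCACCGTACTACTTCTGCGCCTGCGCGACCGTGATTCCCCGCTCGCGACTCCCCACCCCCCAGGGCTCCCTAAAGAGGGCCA

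The letters GGAC, the core that METTL3 sites often carry, did not occur in this window on the strand of the gene. On the other strand, read as GTCC, they occurred 1 time, and not in the covered bases. GGAC was present on the gene strand in 66.3% of all 35116 windows of this length, and in 30.6% of their last 92 bases. The rest of each peak, downstream of the window, was not read. NUP62 lies within the bounds of IL4I1 on the same strand, so that reads of the 2 genes cannot be told apart there.

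NUP98, which also encodes the Y-complex protein NUP96, held 4 wild-type and 4 knockout peaks. None was shared, beside 78.7% and 73.5% without a partner over protein-coding genes. Wild-type summits lay from 7995 to 98204 bp from the 5′ end and knockout summits from 64254 to 110984 bp, with gaps of 7085 bp or more between the lists. The folds were 7.99, 7.57, 7.09 and 11.0 in wild type. The knockout folds were 7.90, 6.63, 8.16 and 6.25. NUP62CL, a paralogue of NUP62, held 2 and 4 peaks with 1 shared (10.7 and 6.16). NUP58 held 1 and 2 peaks with none shared, and NUP54, its partner in the channel, had 1 in each list with summits 1 bp apart (9.40 and 6.41).

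In genes of the Y complex 10 peaks of wild type stood beside 9 of the knockout, and 1 pair was shared. NUP160, a subunit of the Y, held 4 peaks in each list, none shared, beside 78.7% and 73.5% unshared over protein-coding genes. Its knockout peak at chr11:47847098-47847431 had a fold of 12.9 on 87 reads and missed the wild-type peak at chr11:47846455-47846658 (6.20 on 34 reads) by 439 bp. The strongest NUP160 peak of wild type, at chr11:47791161-47791374, had 10.2 on 38 reads. NUP37 had 2 peaks in each list and none shared (wild-type folds 11.3 and 5.39, knockout folds 12.5 and 5.30). The shared pair was in NUP43, with folds of 8.17 on 141 reads and 3.29 on 178 reads. NUP107 had 2 and 1 peaks, and NUP85 had 1 in the knockout (6.12).

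Inner ring genes held 6 wild-type and 4 knockout peaks over 398 kb, with none shared. Membrane nucleoporin genes, with 1 wild-type and 3 knockout peaks, had none shared either. Over protein-coding genes 78.7% of wild-type and 73.5% of knockout peaks had no partner. NUP93, which anchors the channel to the ring, had 4 wild-type peaks (8.50, 7.47, 7.29 and 7.83) and 1 knockout peak of 3.85, which lay 45.4 kb from the nearest of them. NUP35 had 1 and 2 peaks. Its knockout peak at chr2:183161618-183161866, with a fold of 12.96 on 79 reads, was the strongest nucleoporin peak of the knockout and had its summit 68 bp beyond the 3′ bound. NUP205 had a wild-type peak (6.92 on 69 reads) and NUP188 a knockout peak (5.53 on 21 reads). On the cytoplasmic side NUP214, which binds mRNA export factors, held 4 and 2 peaks. Both knockout peaks were shared (4.63 and 5.76 in the first pair, 3.44 and 9.0 in the second), and the strongest wild-type peak, 11.5 on 32 reads, was not. NUP42, a binding site of the export factor GLE1, had a knockout peak of 6.57 with its summit 421 bp from the 3′ end. NUP210, the membrane glycoprotein of the pore, had a wild-type peak of 4.88 on 58 reads.

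**Figure D3:**
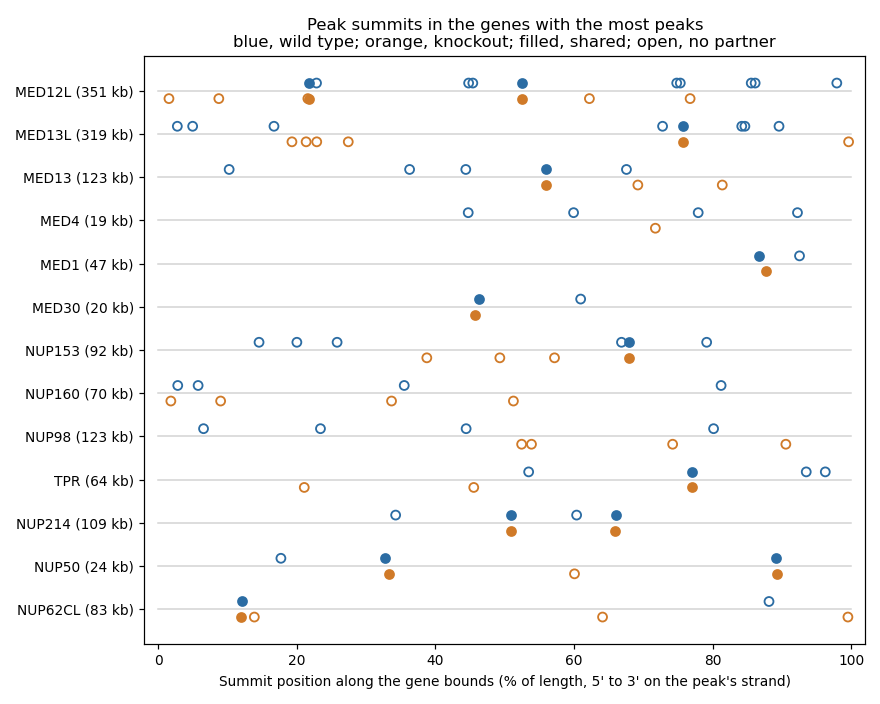
Summit positions of wild-type peaks (blue) and knockout peaks (orange) in the Mediator and nucleoporin genes with the most peaks, as percent of gene length from 5′ to 3′ on the strand of the peak, with filled points for shared and open points for unshared peaks. NUP160 and NUP98 have 4 peaks in each list and no filled point, whereas both knockout peaks of NUP214 are filled. Over protein-coding genes 78.7% of wild-type and 73.5% of knockout peaks are unshared.

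Peaks near gene ends, with 5′ and 3′ taken on the strand of the peak, were rare. Within 500 bp of the 5′ end lay 0 of 46 wild-type and 0 of 27 knockout peaks of Mediator genes, and 1 of 44 and 1 of 43 of nucleoporin genes, which are the NUP62 peaks. Over protein-coding genes the shares were 2.14% and 1.76%. Within 500 bp of the 3′ end lay the second wild-type peak of MED11 and knockout peaks of NUP35, NUP42 and NUP62CL, beside 1.27% of wild-type and 1.17% of knockout peaks in protein-coding genes. The 3 nucleoporin peaks were thus all from the knockout list, where they made up 6.98% of 43. None had a wild-type partner, beside 73.5% of knockout peaks in protein-coding genes without one. The first MED11 peak lay just outside the window, with its summit 502 bp from the end.

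Summits were also placed along the length of the gene, from 5′ to 3′ on the strand of the peak. The last 20% of the gene held 26.1% of wild-type Mediator and 31.8% of wild-type nucleoporin summits, beside 20.4% over protein-coding genes. In the knockout the shares were 18.5% and 20.9%, beside 21.2%. The first 20% of the gene held 15.2% and 18.2% of wild-type summits, beside 22.1% over protein-coding genes. In the knockout it held 18.5% and 20.9%, beside 21.2%. Peaks opposite to their gene are thus placed from its other end. The NUP210L knockout peaks at 6.96% and 12.4% counted in the first 20%, but lie in the last 20% on the strand of the gene. Exons, introns and untranslated regions were not analysed here.

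**Figure D4:**
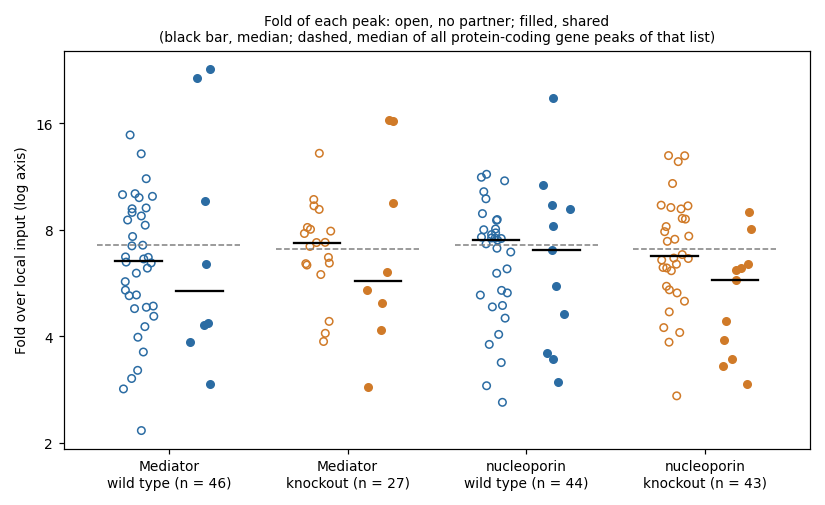
Fold over local input on a log axis for each member peak, by complex and list, with open points for peaks without a partner, filled points for shared peaks, black bars for medians and dashed lines for the median of all protein-coding gene peaks of that list. In every column the points without a partner have the higher median, and all columns but the nucleoporin knockout reach their highest fold in a shared peak.

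Fold and read support went with sharing in different ways. In wild type the median fold was 6.46 in Mediator genes (quartiles 4.61 and 9.11) and 7.38 in nucleoporin genes (4.87 and 8.51), beside 7.26 over protein-coding genes. In the knockout it was 7.17 and 6.41, beside 7.06. Shared peaks had lower median folds than unshared ones in each complex and list. The wild-type medians were 5.37 against 6.54 in Mediator and 7.0 against 7.47 in nucleoporin genes, and the knockout medians 5.74 against 7.36 and 5.76 against 6.72. Over protein-coding genes the corresponding medians were 7.11 against 7.29 in wild type and 7.09 against 7.06 in the knockout. IP reads ran the other way. Shared wild-type peaks had medians of 56 and 49 reads in Mediator and nucleoporin genes, and unshared ones 27.5 and 38. In wild type 0 of 7 member peaks with up to 15 reads were shared, 2 of 28 with 16 to 30 reads (7.14%) and 17 of 55 with 31 or more (30.9%, 19.1 to 44.8), beside 5.27%, 11.9% and 38.3% over protein-coding genes. In the knockout the same classes gave 0 of 6, 2 of 18 (11.1%) and 17 of 46 (37.0%, 23.2 to 52.5), beside 5.73%, 13.3% and 40%.

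The 19 shared pairs were set side by side by fold. Of 8 Mediator pairs, 4 had the higher fold in the knockout and 4 in wild type. Of 11 nucleoporin pairs, 4 were higher in the knockout and 7 in wild type. Since the scales differ, the protein-coding background is the reference, where 51.2% of 4829 pairs were higher in the knockout. On the log2 scale knockout minus wild type had a median of 0.04 in Mediator pairs (range −2.08 to 2.09), of −0.51 in nucleoporin pairs (−1.60 to 1.39) and of 0.02 over protein-coding genes. The extremes of both signs were the MED12L pairs.

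**Figure D5:**
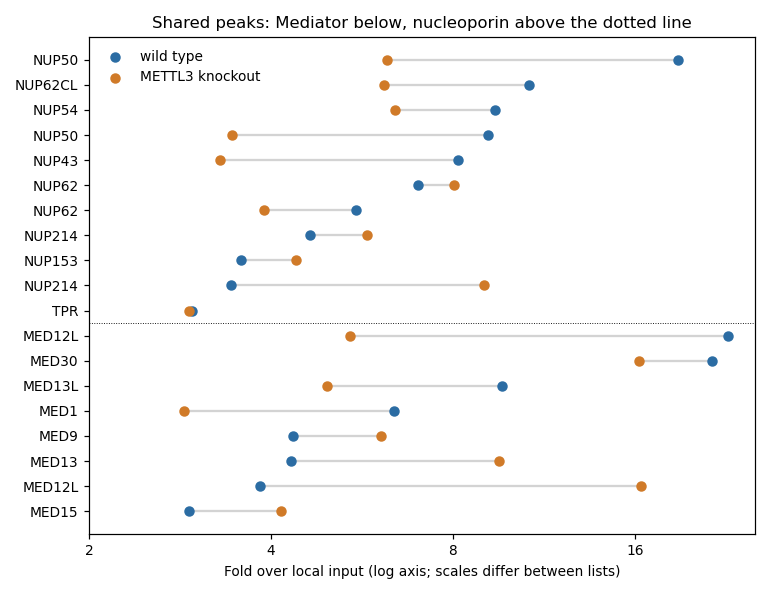
Fold over local input, on a log axis, of the wild-type peak (blue) and the knockout peak (orange) of each of the 19 shared pairs, with 8 Mediator pairs below and 11 nucleoporin pairs above the dotted line, named by gene. The MED12L pairs differ most and in opposite directions, and the TPR pair nearly coincides.

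Other genes of the same machinery were counted from fixed lists. Of 32 Mediator partners, which include the kinase module enzymes, RNA polymerase II subunits, general and elongation factors and the cohesin loader NIPBL, 21 had a peak, beside 47.8% of protein-coding genes. They held 54 wild-type and 39 knockout peaks, and of the 17 that had wild-type peaks, 7 had none in the knockout (41.2%), beside 32.8% of protein-coding genes. NIPBL held the most over both lists, with 9 and 6 peaks. CDK8, the kinase of the module, held 6 and 8 peaks with 3 shared, CDK19, its paralogue, 5 and 1 with 1 shared, and CCNC, which encodes cyclin C, 0 and 4. POLR2A, the largest polymerase subunit, had 1 peak in each list. Of 38 genes for other pore proteins and transport factors, 32 had a peak, beside the same 47.8%. They held 83 wild-type and 76 knockout peaks, and of the 25 that had wild-type peaks, 3 had none in the knockout (12%), beside the same 32.8%. RANBP2, the large cytoplasmic filament protein, led with 25 and 21 peaks and 8 shared. Its bounds in the table span 1123 kb, and near-identical gene copies leave its reads uncertain. IPO9, an importin, held 2 and 6 peaks with 2 shared, and XPO1, the main export receptor, had none. In these lists 0 genes passed the exact test of peak numbers, with a smallest adjusted p of 1.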

How the data were processed

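The data were 2 deposited peak lists, 1 per genotype, each standing for 2 IP and 2 input libraries of chromosome-associated RNA. Per the submitters' processing notes the tools were MACS2 2.2.7.1, SAMtools 1.15.1 and HISAT2 2.2.1 on hg38, without settings. How replicates were combined is not stated in the labels. The fold column is a deposited ratio of IP over local input. Each peak has a deposited p-value and q-value on the −log10 scale, and the q column starts at 2.01 in wild type and 2.02 in the knockout. The score that the authors deposited, for display, entered no result.

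Bounds came from the RefSeq table of GRCh38.p14, without exons, and gene strands from RefSeq start-site records, which hold 45 of the 54 members. Overlaps, 95% Clopper-Pearson intervals and Fisher's exact tests used SciPy 1.17.1, pandas 2.3.3 and numpy 2.4.6 under Python 3.11.15; matplotlib 3.10.9 drew the plots. The overlap rule, the test per gene and the read recovery were tested on simulated data. IP reads were recovered as the whole number whose scaled pileup gives both the fold and the Poisson p-value. At least 99.992% of peaks in each list and strand matched within a −log10 p of 0.002 (more for larger values), with scales per read of 0.607 (plus strand) and 0.572 (minus) for wild type, and 0.479 and 0.438 for the knockout. Library totals are unknown. The lists hold no replicate values, so p-values describe the lists, not the genotypes.

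Members, modules and lists were chosen with earlier results of these data known. By rule the text names all members, with values for the genes with the most peaks, the strongest 4 peaks of each class and complex, genes with peaks in 1 list, opposite strand peaks and peaks at gene ends. Values of other members complete the modules and were chosen after they were seen. Alternatives varied the overlap rule, the strength of peaks and the assignment to genes.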

Additional observations from a re-analysis of the deposited data

How the results depend on the processing

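Of the alternatives tried, all planned, those on the assignment to genes (peaks in exactly 1 gene, peaks on the strand of the gene), on −log10 q of at least 5, on equal numbers of strongest peaks, on reciprocal overlap of 50% and on overlap on either strand left the shares within their counting intervals and the counts within 1.5 times. The setting of peaks on the strand of the gene also left out genes of unknown strand. In Mediator genes it removed only those, because no peak of a gene of known strand lay opposite. For Mediator it therefore cannot show how the results depend on strand. Requiring summits within 100 bp raised the share without a partner in Mediator genes to 93.5% in wild type and 88.9% in the knockout, beside 82.3% and 78.0% over protein-coding genes. Keeping the 50% of each list with the highest fold left 17 wild-type and 14 knockout Mediator peaks, of which 94.1% and 92.9% had no partner. It left 22 and 17 nucleoporin peaks, of which 100% and 100% had none, beside 87.4% and 84.8% over protein-coding genes. In that setting partners of lower fold no longer count, and knockout peaks per 100 in wild type were 82.4 in Mediator and 77.3 in nucleoporin genes, the reverse of the order as reported. The test of peak numbers called 4 genes as reported and 4 with −log10 q of at least 5, with 0 members in both. Leaving out a replicate was not run, as the lists hold no values per replicate. No paired analysis was possible because each genotype has a single list and its columns carry no replicate number. Depth limits these results through the 27 to 46 peaks per complex and list, whose shares have the wide counting intervals printed with them.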
